A study of Mus musculus with 6 samples.

Results

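The transcription factors that specify red blood cells, together with the receptor for erythropoietin, were followed in male mouse embryos with and without Smchd1. The set held 10 genes chosen by symbol, *Gata1*, *Gata2*, *Klf1*, *Tal1*, *Lmo2*, *Nfe2*, *Gfi1b*, *Zfpm1*, *Ldb1* and *Epor*, and each was found at 1 of the 24207 entries of the deposited expression table. RNA-seq was performed on whole E9.5 embryos, 3 of genotype Smchd1+/+ (wildtype) and 3 of genotype Smchd1MommeD1/MommeD1 (mutant), all male. MommeD1 is a chemically induced nonsense allele of *Smchd1*, a chromatin gene required for X inactivation. The sample labels name C57Bl6/J and FVB/n as the background strains of all 6 embryos, whereas the text of the study describes a backcross to another strain. Genotyping was done on the yolk sac.

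The table gives 1 FPKM value per genotype, pooled by the authors over its embryos. FPKM counts sequenced fragments relative to transcript length and to all mapped fragments, so it is corrected for length and can be set side by side for different genes. No value per embryo was used, so no spread between embryos, no test and no depth can be given. All ratios below are log2 ratios of mutant over wildtype with 0.1 FPKM added to each value. *Smchd1* itself was at 2.12 FPKM in mutants against 34.0 FPKM in wildtype, a log2 ratio of -3.94.

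In the midgestation embryo nearly all circulating blood is made of primitive red cells from the yolk sac, with their own embryonic globins. GATA2 is known for early blood progenitors and gives way to GATA1 as red cells mature, a handover called the GATA switch. GATA1, TAL1, LMO2 and LDB1 bind DNA as a complex at red cell genes, with FOG-1, the product of *Zfpm1*, as a GATA1 cofactor. KLF1 binds CACCC motifs of globin and other red cell genes. NFE2 pairs with small Maf proteins, and GFI1B is a repressor that recruits the histone demethylase KDM1A. EPOR carries the survival signal of erythropoietin in red cell precursors through the kinase JAK2.

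Of the 10 genes, 9 had a higher value in mutant embryos and *Lmo2* a lower one. *Gata1* stood at the top, near to double its wildtype level, followed by *Nfe2* and *Klf1*, then *Gfi1b* and *Epor*. *Zfpm1*, *Gata2*, *Tal1* and *Ldb1* were at most 1.18-fold above wildtype. At 1.5-fold, used here as the size of difference to count, 2 of 10 were higher (*Gata1* and *Nfe2*), against 3.51% of the 12463 entries averaging at least 1 FPKM. With 1 FPKM added, or centred on housekeeping genes, *Gata1* alone passed, and with both genotypes set to the same total FPKM 3 genes did. None was 1.5-fold lower, against 1.47% of those entries. Values of low entries scatter more, and 9 of the 10 genes lay below 20 FPKM. Among the 8254 entries with a mean of 1 to 20 FPKM, 4.8% were at least 1.5-fold higher and 1.78% at least 1.5-fold lower. None of the 10 genes reached 2-fold in either direction, against 0.979% higher and 0.514% lower of all these entries, and 1.26% and 0.557% of those up to 20 FPKM. With both genotypes set to the same total FPKM the log2 ratio of *Gata1* was 1.01, just past 2-fold. The median log2 ratio of the 10 genes was 0.32, beside -0.01 over the 12463 entries, of which 48.2% were above 0. Over the 5 genes averaging at least 5 FPKM it was 0.15. In whole embryos more cells of a type and more RNA per cell cannot be told apart.

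**Figure D1:**
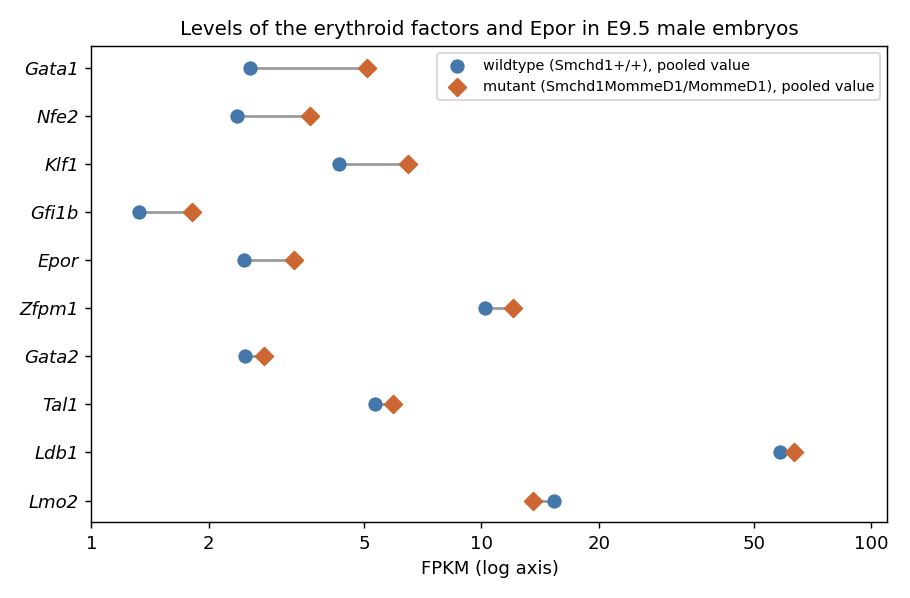
FPKM of the 10 genes (log axis) in wildtype (circles) and mutant (diamonds) embryos, 1 pooled value per genotype, with no error bar because no value per embryo was used. Genes are ordered by their log2 ratio from *Gata1* (0.97) at the top to *Lmo2* (-0.18) at the bottom.

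*Gata1*, the X-linked zinc finger factor without which red cells do not mature, was at 5.10 FPKM in mutants against 2.56 FPKM in wildtype. This log2 ratio of 0.97 was exceeded by 137 of the 12463 entries. The entry lies on chromosome X of mm10 from 7959260 to 7967815 on the minus strand, and GENCODE M21 gives the gene 6 exons. The neighbours counted here did not share the difference. These were the 7 other named entries within 100 kb that averaged at least 1 FPKM and had a locus of their own. They ranged from -0.09 to 0.12, and the nearest of them, *Hdac6*, was at 16.1 FPKM in mutants against 17.1 FPKM in wildtype.

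*Gata2*, at 88198664 to 88207032 on chromosome 6, was at 2.77 FPKM in mutants against 2.48 FPKM in wildtype, a log2 ratio of 0.16. *Gata1* and *Gata2* were therefore at nearly equal levels in wildtype embryos, with a *Gata1* to *Gata2* ratio of 1.03, and apart in mutant embryos, with a ratio of 1.84. A ratio within a genotype does not depend on how the genotypes were scaled to each other. *Zfpm1*, on chromosome 8 from 122282141 to 122337877, was at 12.1 and 10.2 FPKM in mutant and wildtype embryos (log2 ratio 0.24), so that its transcripts outnumbered those of *Gata1* in both genotypes. *Gata1* amounted to 0.422 of the *Zfpm1* level in mutant and 0.250 in wildtype embryos.

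*Klf1* was the fourth most abundant of the 10 genes in mutant and the fifth in wildtype embryos, at 6.47 and 4.31 FPKM. Its log2 ratio of 0.57 corresponds to 1.49-fold, just under the 1.5-fold mark, whereas *Nfe2* at 1.52-fold was just above it. The *Klf1* entry spans 84901928 to 84905295 on chromosome 8, with 3 exons on the plus strand. Its 6 counted neighbours within 100 kb ranged from -0.10 to 0.20. *Nfe2*, from 103248218 to 103255416 on chromosome 15, was at 3.63 FPKM in mutants against 2.36 FPKM in wildtype (log2 ratio 0.60). *Mafk*, a small Maf partner of NFE2, was at 3.90 and 3.84 FPKM. The *Nfe2* to *Mafk* ratio was thus 0.931 in mutant and 0.614 in wildtype embryos.

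*Gfi1b* had the lowest level of the set in both genotypes, 1.81 FPKM in mutants against 1.32 FPKM in wildtype, with a log2 ratio of 0.42. The entry covers 28609450 to 28621982 on chromosome 2. *Kdm1a*, the demethylase it recruits, was far more abundant and alike in both genotypes, at 57.9 and 58.6 FPKM.

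*Epor* was at 3.31 FPKM in mutants against 2.46 FPKM in wildtype, a log2 ratio of 0.41. It lies on chromosome 9 from 21958899 to 21963576, on the minus strand, with 8 exons. *Kit*, the receptor of stem cell factor on blood progenitors, went the other way, at 7.34 and 9.25 FPKM (log2 ratio -0.33). The *Epor* to *Kit* ratio was 0.451 in mutant and 0.266 in wildtype embryos. Of the 6 counted neighbours of *Epor* within 100 kb, 2 were at least 1.5-fold higher in mutant embryos, namely *Elavl3* and *BC018242*, and the median of the 6 was 0.36. *Elavl3* is a neuronal RNA-binding protein gene.

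The other components of the DNA-binding complex lay close to their wildtype levels. *Tal1*, from 115057110 to 115071756 on chromosome 4, was at 5.93 and 5.34 FPKM in mutant and wildtype embryos (log2 ratio 0.15). *Ldb1*, the dimerizing subunit, was the most abundant of the set at 63.2 and 58.4 FPKM (log2 ratio 0.12), on chromosome 19 from 46032601 to 46045211. *Lmo2*, the bridge between TAL1 and LDB1, ranked second at 13.5 and 15.4 FPKM (log2 ratio -0.18), on chromosome 2 from 103957995 to 103981878. Set against *Ldb1*, the level of *Tal1* was 0.0938 in mutant and 0.0915 in wildtype embryos, that of *Lmo2* 0.214 and 0.263, and that of *Gata1* 0.0807 and 0.0438. GENCODE M21 has another gene overlapping *Ldb1* (*Pprc1*) and *Lmo2* (*4931422A03Rik*) on the opposite strand and *Zfpm1* (*Gm20388*) on the same strand. The libraries were nondirectional, so reads from overlapping stretches cannot be assigned by strand. The other 7 genes overlapped no annotated gene.

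**Figure D2:**
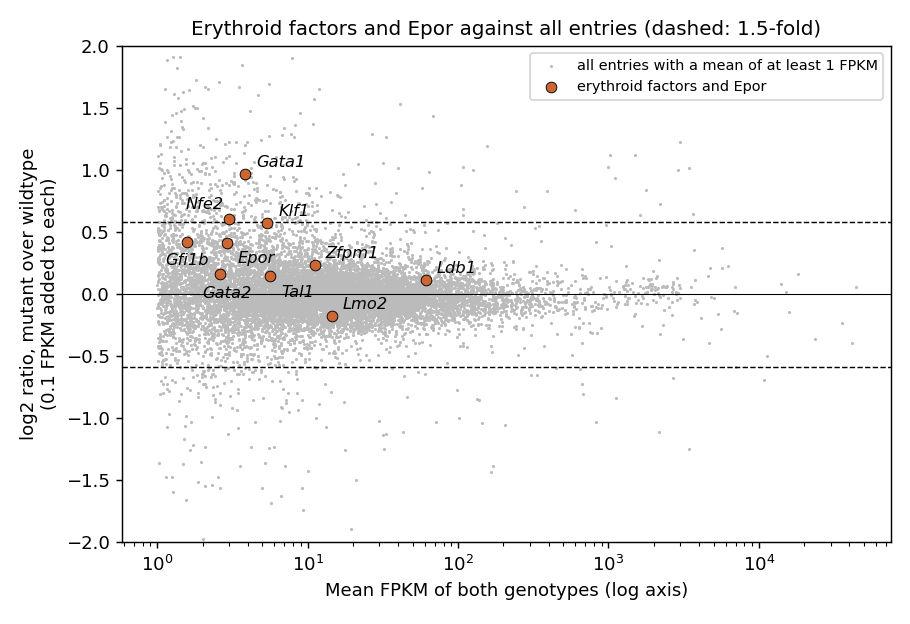
Log2 ratio of mutant over wildtype (0.1 FPKM added) against mean FPKM of both genotypes (log axis) for the 12463 entries averaging at least 1 FPKM (grey, 23 of which lie outside the plotted range) and for the 10 genes (orange). *Gata1* and *Nfe2* lie above the dashed 1.5-fold line, *Klf1* just under it, and *Lmo2* is below 0.

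By level the 10 genes spanned from 1.32 to 58.4 FPKM in wildtype embryos. In that order *Ldb1*, *Lmo2* and *Zfpm1* led, followed by *Tal1*, *Klf1* and *Gata1*, and then by *Gata2*, *Epor*, *Nfe2* and *Gfi1b*. The values of *Gata1*, *Gata2*, *Epor* and *Nfe2* in wildtype embryos lay between 2.36 and 2.56 FPKM, and no spread is known by which to tell them apart. In mutant embryos the same genes lay between 2.77 and 5.10 FPKM, with *Gata1* highest and *Gata2* lowest. The genes with the largest ratios, *Gata1*, *Nfe2*, *Klf1*, *Gfi1b* and *Epor*, were all below 7 FPKM in both genotypes.

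Promoter sequences of genes with high ratios are given here because the factors of this set are known to bind GATA, CACCC and E-box motifs at red cell genes, their own included. RefSeq windows (GRCm38.p6, the mm10 assembly) were matched for 8 of the 10 genes, with more than 1 start for *Gata2*, *Tal1* and *Ldb1*. None was matched for *Nfe2*, the second highest by ratio, or for *Lmo2*. The 250 bases before the start are shown 5′ to 3′ on the strand of the gene for the 4 matched genes with the highest ratios. Capitals mark every match to the GATA hexamers (GATAA or GATAG preceded by A or T), to CCNCNCCC, a CACCC-type motif, and to CAGATG, an E-box, each on either strand.
Gata1 (chrX:7967911-7968160, minus strand): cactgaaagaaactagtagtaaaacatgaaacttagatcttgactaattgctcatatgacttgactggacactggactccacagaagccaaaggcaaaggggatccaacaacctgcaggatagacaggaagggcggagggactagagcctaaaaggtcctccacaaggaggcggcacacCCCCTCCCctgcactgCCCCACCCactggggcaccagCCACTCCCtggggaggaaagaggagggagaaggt
Klf1 (chr8:84901732-84901981, plus strand): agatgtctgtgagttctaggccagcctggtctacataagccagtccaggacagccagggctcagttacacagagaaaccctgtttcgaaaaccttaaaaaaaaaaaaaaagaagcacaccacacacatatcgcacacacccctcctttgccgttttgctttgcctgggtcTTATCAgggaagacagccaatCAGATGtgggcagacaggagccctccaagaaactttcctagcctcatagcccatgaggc
Gfi1b (chr2:28621983-28622232, minus strand): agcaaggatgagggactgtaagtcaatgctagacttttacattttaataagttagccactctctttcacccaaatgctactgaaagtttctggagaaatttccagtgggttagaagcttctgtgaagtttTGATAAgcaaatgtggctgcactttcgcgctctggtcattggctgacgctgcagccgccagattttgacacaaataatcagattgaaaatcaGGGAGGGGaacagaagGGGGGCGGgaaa
Epor (chr9:21963577-21963826, minus strand): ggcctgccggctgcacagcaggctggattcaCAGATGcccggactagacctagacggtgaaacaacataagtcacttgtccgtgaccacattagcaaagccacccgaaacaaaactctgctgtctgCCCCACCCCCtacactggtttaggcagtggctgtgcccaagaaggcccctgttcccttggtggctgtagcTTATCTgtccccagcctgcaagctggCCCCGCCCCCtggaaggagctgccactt

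The *Klf1* window held a GATA hexamer at 80 to 75 bases before the start and a CAGATG at 59 to 54 bases before it, with no CACCC-type match. *Epor* had a GATA hexamer at 54 to 49 bases, CAGATG at 219 to 214 bases and 4 CACCC-type matches that overlap in pairs. For *Gfi1b* the GATA hexamer stood at 120 to 115 bases, with 2 CACCC-type matches on the strand opposite the gene nearer the start. The *Gata1* window held 3 CACCC-type matches between 71 and 27 bases before the start and no GATA hexamer. Among all 32851 RefSeq windows of this length, 26.5% held a GATA hexamer, 45.9% a CACCC-type match and 14.4% a CAGATG. Of the 12 windows of the 8 genes, 5 held a GATA hexamer, 10 a CACCC-type match and 2 a CAGATG. Windows of *Tal1* and *Ldb1*, whose ratios were near 0, also held GATA hexamers. The STAT motif TTCNNNGAA was in 1, that of *Gfi1b*, and in 7.02% of all. A match describes the letters of the window only.

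**Figure D3:**
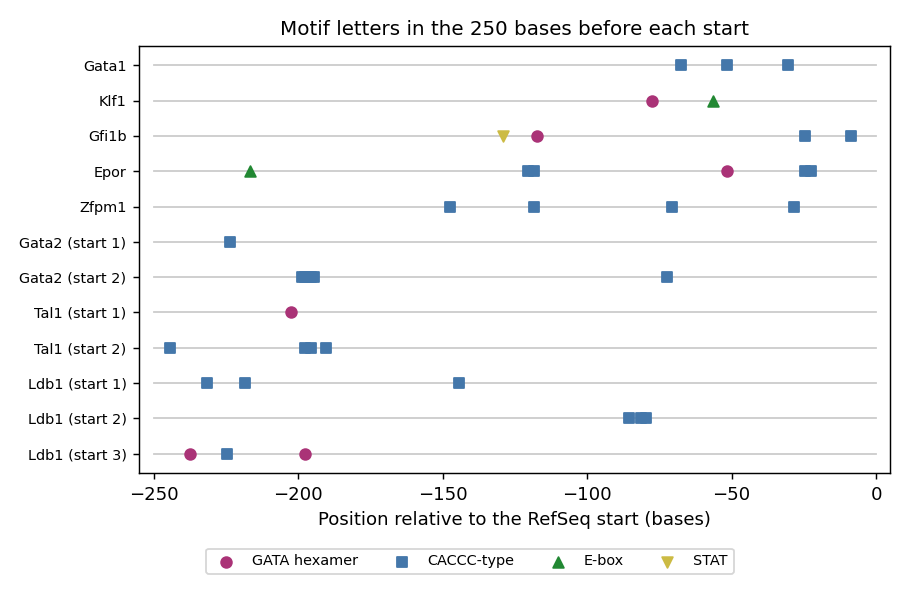
Position of motif matches in the 250 bases before each RefSeq start (horizontal axis, bases from the start) for the 12 windows of 8 genes, ordered by log2 ratio with *Gata1* at the top. GATA hexamers are seen 80 to 75 bases before the start of *Klf1* and 54 to 49 bases before that of *Epor*.

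Globin genes, known targets of these factors, were more abundant in mutant embryos. All 6 globin entries were at least 1.5-fold higher, with a median log2 ratio of 1.07. *Hbb-y*, an embryonic beta globin, was at 4191 FPKM in mutants against 1787 FPKM in wildtype (log2 ratio 1.23), *Hbb-bh1* at 3845 and 1918 FPKM (1.0), and *Hba-x*, the embryonic alpha globin, at 4602 and 2274 FPKM (1.02). *Hba-a1*/*Hba-a2* was listed at 2 entries with ratios of 1.12 each, between which near-identical copies share reads. *Hbb-b1*/*Hbb-b2*, the adult beta globins, were at 17.9 and 11.1 FPKM (0.68). *Gata1* was the single gene of the set whose ratio came near the globin median, at 0.10 below it, while *Klf1* lay 0.50 and *Tal1* 0.92 below.

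Of 11 enzymes of heme synthesis and breakdown, 2 were at least 1.5-fold higher, *Alas2* and *Blvrb*, and none was 1.5-fold lower. *Alas2*, the red cell form of the enzyme that begins heme synthesis, was at 29.3 FPKM in mutants against 14.1 FPKM in wildtype (log2 ratio 1.05), while *Alas1*, its counterpart in other tissues, was at 8.38 and 8.98 FPKM (-0.10). *Blvrb*, a reductase abundant in red cells, was at 19.9 and 12.6 FPKM (0.65). The other 8 enzymes lay within 1.5-fold, among them *Alad*, the most abundant, at 75.8 and 79.0 FPKM (-0.06), and *Ppox* at 8.41 and 6.58 FPKM (0.35), and the median over the 11 was 0.11. Of 19 entries for red cell membrane and iron uptake genes averaging at least 1 FPKM, 10 were at least 1.5-fold higher and none 1.5-fold lower, with a median of 0.59. Over those averaging at least 5 FPKM the median was 0.098 and 3 were higher. All 20 entries summed to 447 FPKM in mutants against 492 FPKM in wildtype, of which *Slc2a1* alone held 209 and 294 FPKM. *Slc4a1*, the anion exchanger of the red cell membrane, was at 35.6 and 21.5 FPKM (0.73), *Rhd* at 3.34 and 1.5 FPKM (1.10) and *Icam4* at 1.95 and 0.968 FPKM (0.94). *Icam4* reached a mean of 1 FPKM only through its mutant value. *Tfrc*, the transferrin receptor, was at 60.0 and 60.1 FPKM, and *Slc2a1*, the glucose transporter of many tissues, was lower in mutant embryos at 209 and 294 FPKM (-0.49). *Epb4.1*, which ties the membrane to its skeleton, was at 51.9 and 49.1 FPKM (0.08), and *Tmod1*, a cap of actin filaments, at 2.91 and 3.14 FPKM (-0.11). Beside the membrane median of 0.59, *Gata1* lay 0.38 above, *Nfe2* 0.016 above and *Klf1* 0.012 below. The others of the 10 genes lay 0.16 to 0.76 below it. Beside the heme median of 0.11, *Lmo2* lay 0.29 below and the others above.

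**Figure D4:**
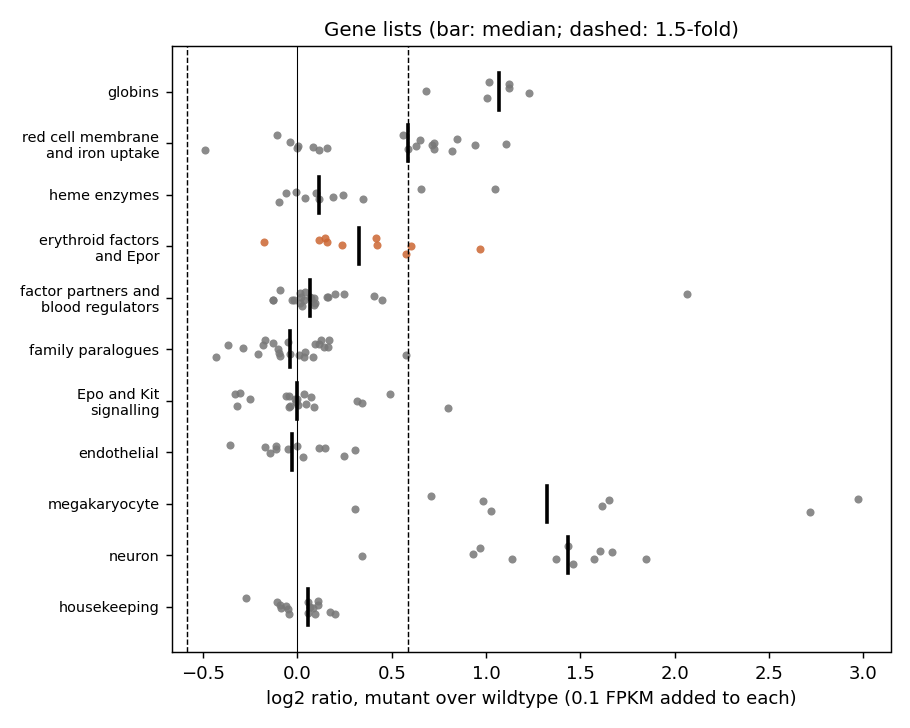
Log2 ratio of mutant over wildtype (0.1 FPKM added) of each entry averaging at least 1 FPKM in 11 gene lists, with the median as a bar and 1.5-fold as dashed lines. The 10 genes (orange, median 0.32) lie between the globins (1.07) and the partners (0.06), paralogues (-0.04), signalling (-0.0045) and endothelial genes (-0.03).

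Other regulators of blood and partners of these factors lay closer to wildtype. Of 23 entries averaging at least 1 FPKM, 1 was at least 1.5-fold higher and none was 1.5-fold lower, with a median log2 ratio of 0.06. *Tcf3* and *Tcf12*, the bHLH partners of TAL1, were at 91.4 and 86.0 FPKM and at 73.5 and 69.2 FPKM in mutant and wildtype embryos. *Ssbp3*, which stabilizes LDB1, was at 83.7 and 70.4 FPKM (0.25), and *Cbfb* at 66.5 and 67.9 FPKM (-0.03). *Mafg*, a small Maf gene listed together with *Sirt7*, was at 13.1 and 14.3 FPKM (-0.13). *Lyl1*, the closest relative of TAL1, was at 2.36 and 2.21 FPKM (0.09). *Ikzf1*, a lymphoid and red cell factor, was at 1.80 and 1.29 FPKM (0.45). The 1 gene past 1.5-fold was *Bcl11a*, at 2.71 and 0.571 FPKM (2.06), which represses globins in later red cells and is also known from neurons. It reached a mean of 1 FPKM only through its mutant value. *Tubb3* and other neuron markers were higher in the same embryos, with 10 of 11 past 1.5-fold, a median of 1.43 and summed levels of 242 and 109 FPKM over 12 entries. Their part in the value of *Bcl11a* was not tested.

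The list for EPOR and KIT signalling held ligands, receptors other than EPOR, kinases, phosphatases, STAT factors, adaptors and feedback inhibitors, with *Bcl2l1* and *Tfrc*. Of 20 entries averaging at least 1 FPKM, 1 was at least 1.5-fold higher, *Csf2rb* at 1.82 and 1.0 FPKM (0.80), which encodes a cytokine receptor subunit known to associate with EPOR. The median was -0.0045. *Jak2* was at 6.75 and 6.97 FPKM (-0.05) and *Stat5b* at 6.52 and 5.22 FPKM (0.31). *Stat3* was at 4.43 and 3.47 FPKM (0.34), and *Socs2*, a feedback inhibitor, at 6.75 and 8.06 FPKM (-0.25). The adaptors and phosphatases *Grb2*, *Gab1*, *Sh2b3*, *Ptpn6* and *Ptpn11* lay between -0.06 and 0.07. *Cish*, a feedback inhibitor induced by STAT5, was at 2.15 and 1.51 FPKM (0.49), whereas *Bcl2l1*, a survival gene of red cell precursors, was at 24.0 and 23.5 FPKM (0.03) and *Pim1* at 24.8 and 24.9 FPKM. *Epo* was listed at 2 entries, with ratios of 0.05 and -0.32, at levels between 1.22 and 2.44 FPKM. *Kitl*, the ligand of KIT, was at 11.3 and 13.9 FPKM (-0.30).

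Paralogues of the set had a median of -0.04 over 23 entries averaging at least 1 FPKM, none past 1.5-fold in either direction. *Gata4*, a heart and endoderm factor, was at 7.0 FPKM in mutants against 9.48 FPKM in wildtype (-0.43), and *Gata6* at 9.91 and 11.5 FPKM (-0.21). *Gata3*, the third GATA factor of blood and also a neural gene, was at 3.45 and 3.08 FPKM (0.16). *Klf3*, a repressor that shares binding sites with KLF1, was at 19.0 and 20.8 FPKM (-0.13). The *Klf1* to *Klf3* ratio was 0.340 in mutant and 0.207 in wildtype embryos. *Lmo4* was at 48.2 and 51.4 FPKM (-0.09) and *Nfe2l1* at 36.0 and 35.8 FPKM (0.01). Of the KLF family, *Klf13* was at 14.0 and 13.2 FPKM (0.08), *Klf7* at 3.57 and 3.16 FPKM (0.17) and *Klf15* at 2.44 and 3.18 FPKM (-0.37). The highest ratio was that of *Lmo1*, a relative of LMO2 known from neurons, at 9.87 and 6.60 FPKM (0.57).

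Several of the 10 genes are also known from other cells, namely *Tal1*, *Lmo2* and *Gata2* from endothelium and *Gata1*, *Nfe2*, *Gfi1b* and *Zfpm1* from megakaryocytes. The 12 endothelial markers had a median of -0.03, none past 1.5-fold, and summed levels of 161 and 160 FPKM in mutant and wildtype embryos. *Plvap*, the most abundant, was at 23.4 and 21.1 FPKM, *Cdh5* at 19.1 and 19.7 FPKM and *Tek* at 5.96 and 7.66 FPKM (-0.36). *Cldn5*, a tight junction gene, was at 21.2 and 17.8 FPKM (0.25) and *Egfl7* at 19.9 and 22.0 FPKM (-0.15). *Pecam1*, an adhesion molecule, was at 9.05 and 7.30 FPKM (0.31), and *Kdr*, a receptor of VEGF, had a log2 ratio of -0.17. The *Lmo2* to *Cdh5* ratio was 0.710 in mutant and 0.778 in wildtype embryos, and that of *Tal1* to *Cdh5* 0.311 and 0.271. Megakaryocyte markers were higher. Of 8 averaging at least 1 FPKM, 7 were at least 1.5-fold higher, the median was 1.32 and the 14 entries summed to 41.5 and 16.3 FPKM. *Ppbp*, *Plek*, *Itga2b* and *Tubb1* were below 1 FPKM in wildtype and reached this mean only through their mutant values, so the filter favoured higher ratios. *Pf4*, *Itgb3*, *Gp1bb* and *Vwf* were above 1 FPKM in both genotypes. With a mean of at least 0.1 FPKM, 12 were higher and the median was 1.56. *Gp1bb*, listed together with *Sept5*, was the most abundant at 13.4 and 8.14 FPKM, *Pf4* was at 10.6 and 1.53 FPKM (2.71) and *Ppbp* at 1.87 and 0.151 FPKM (2.97). *Tubb1*, the platelet tubulin, was at 3.34 and 0.996 FPKM (1.65), *Itgb3* at 3.12 and 1.48 FPKM (1.03) and *Vwf*, shared with endothelium, at 2.22 and 1.78 FPKM (0.30). *Gp1ba* was below 1 FPKM in both genotypes, at 0.581 and 0.296 FPKM. What part these cells had in the values of *Gata1*, *Nfe2* and *Gfi1b* was not tested.

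Mast cells also use *Gata1* and *Gata2*. None of the 8 mast cell entries reached a mean of 1 FPKM, *Fcer1a* was listed at 0 in both genotypes, and *Cpa3* and *Ms4a2* were at or below 0.0777 FPKM. Macrophage markers were likewise low, with 1 of 9 entries (*Cd68*, at 1.12 and 1.04 FPKM) reaching a mean of 1 FPKM and summed levels of 2.87 and 1.66 FPKM. Below that mean, *Cx3cr1* was at 0.324 and 0.0324 FPKM (1.68) and *Csf1r* at 0.385 and 0.145 FPKM (0.98). With a mean of at least 0.1 FPKM, 3 macrophage entries were at least 1.5-fold higher and 0 lower. Housekeeping genes had a median of 0.06 over 16 entries, none past 1.5-fold. *Eef1a1*, the most abundant, was at 7042 and 6779 FPKM, and *Gapdh* at 3602 and 3462 FPKM (0.06). *Ppia* was at -0.06, *Rplp0* at 0.07, *B2m* at 0.17, *Gusb* at -0.11 and *Pgk1* at -0.27, all as log2 ratios. Of the neighbours within 100 kb of the 10 genes, 17 with a locus given to more than 1 entry were left out. The other 40 had a median of 0.03, with 3 at least 1.5-fold higher and none 1.5-fold lower. *Pdzk1ip1*, near *Tal1* and 1 of the 3, was at 1.51 and 0.953 FPKM and reached a mean of 1 FPKM only through its mutant value.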

How the data were processed

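The samples were 6 male embryos at E9.5, assigned to 2 groups of 3 by their labelled genotype. Per the labels, reads were aligned to mm10 with TopHat2 2.0.6 and Bowtie2 2.0.2, and Cufflinks and Cuffdiff 2.0.2 were run. The deposited FPKM values are the authors' pooled values, 1 per genotype, and the deposited column names were matched to the genotypes through the study's supplementary copy of the table. The annotation release is not given in the sources used here. Read counts, and with them depth and counting intervals, are unknown. The columns of the authors' own comparison (fold change, test statistic, p-value, q-value and a significance mark) were not used.

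Entries whose symbol column held a listed gene were taken. Log2 ratios used a pseudocount of 0.1 FPKM, and lists were summarised over entries averaging at least 1 FPKM, by counts at 1.5-fold and the median, beside the same over all entries. An entry below 1 FPKM in 1 genotype can pass this mean through the other. Entries without a symbol numbered 1110 and held 36.8% of the summed values in mutants and 39.3% in wildtype. Locus starts were counted from 1. Neighbours were named entries averaging at least 1 FPKM, and 17 whose locus the table gives to more than 1 entry were left out. By rule, named genes were the 10 members, any globin, heme or signalling gene, and in other lists the 4 most abundant and the 2 highest and 2 lowest ratios. Direct partners, *Gata3*, *Gata6*, *Lyl1*, *Mafk*, *Kdm1a*, *Kit* as a divisor, neighbouring genes and further cell type markers lie outside this rule and were chosen after their values were seen. The 10 genes, the lists and the thresholds were chosen with earlier results of these data known. Of the listed symbols, 7 had no entry and were not analysed here. Some listed genes are not reported here by name. Alternatives were other pseudocounts, scalings, fold thresholds and filters. The steps were tested on simulated data. Python 3.11.15, numpy 2.4.6, pandas 2.3.3 and matplotlib 3.10.9 were used.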

Additional observations from a re-analysis of the deposited data

How the results depend on the processing

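No paired analysis was possible because 1 value per genotype was used, and leaving out each embryo was not possible for the same reason. Each log2 ratio of the 10 genes kept its sign under 2 other pseudocounts and 3 other scalings, from 0.78 to 1.01 for *Gata1* and from -0.24 to -0.14 for *Lmo2*. Those of *Nfe2* (0.46 to 0.65) and *Klf1* (0.49 to 0.62) crossed the 1.5-fold mark. The other scalings moved every log2 ratio by 0.01, 0.04 or -0.06.

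Of the 10 genes, 5 were higher at a ratio of at least 5 to 4 and 0 at 2-fold. With 1 FPKM added, or centred on housekeeping genes, 1 was 1.5-fold higher (*Gata1*), and with the same total FPKM 3 were. Over the genes averaging at least 5 FPKM their median was 0.15, and without *Gata1*, an alternative chosen after seeing the data, it was 0.24.

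The share of all entries at least 1.5-fold higher was 2.03% with 1 FPKM added, 6.7% averaging at least 0.1 FPKM and 1.5% averaging at least 5 FPKM, and that lower was 0.899%, 2.97% and 0.897%. It was 8.84% and 4.98% at a ratio of 5 to 4, and 0.979% and 0.514% at 2-fold. The range of 1 to 20 FPKM was also chosen after seeing the data.

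For the lists, 341 of 389 alternatives moved a count by no more than 1.5 times or a median by no more than 0.1, and no value past 1.5-fold changed its sign. With 1 FPKM added, medians were 0.45 for membrane, 0.83 for megakaryocyte, 1.28 for neuron and -0.57 for visceral endoderm genes, and 0 signalling, 0 progenitor and 0 V2b genes were 1.5-fold higher. With the same total, 1 paralogue was higher, and when centred on housekeeping genes, 0 V2b genes. At 2-fold, 0 signalling, 0 progenitor, 0 V2b, 1 heme, 1 membrane and 1 visceral endoderm gene were higher and 1 visceral endoderm gene lower. At a ratio of 5 to 4, 3 partners, 1 paralogue, 3 signalling and 4 progenitor genes were higher, and 2 paralogues, 1 signalling, 1 membrane, 1 endothelial and 1 progenitor gene lower. With a mean of at least 0.1 FPKM, medians were 1.56 for megakaryocyte, 0.98 for macrophage, 0.70 for V2b and -0.87 for visceral endoderm genes, 12 megakaryocyte, 3 macrophage and 6 V2b entries were higher and 8 visceral endoderm entries lower. With a mean of at least 5 FPKM, medians were 0.098 for membrane, 1.71 for megakaryocyte, 0.62 for V2b and -0.00035 for visceral endoderm genes. There 0 partners, 0 signalling, 3 membrane, 0 progenitor, 2 megakaryocyte, 6 neuron and 1 visceral endoderm gene were higher and 1 visceral endoderm gene lower. With genes of another list left out, medians were 1.61 for megakaryocyte and 0.43 for V2b genes, and 0 progenitor genes were higher. The filters change which genes are counted, and the cause of the other shifts was not tested.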

Other observations

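Some of the 10 genes are also known from the nervous system, where *Gata2*, *Gata3* and *Tal1* mark the V2b interneurons of the spinal cord and *Tal2* midbrain neurons. Of 10 genes listed for these and related neurons, 4 reached a mean of 1 FPKM, with a median log2 ratio of 0.20. *Gata3* was at 0.16 and *Tal2*, at 4.81 and 4.67 FPKM, at 0.04, beside 0.16 for *Gata2* and 0.15 for *Tal1*. *Nkx2-2* had a log2 ratio of 0.24. *Foxn4*, which acts before V2b neurons form, was below 1 FPKM at 0.564 and 0.140 FPKM (1.47).

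Of 9 genes of blood progenitors, 5 averaged at least 1 FPKM, with a median log2 ratio of 0.40, 4 of them above 0 and 1 past 1.5-fold. That was *Itga2b*, also a megakaryocyte gene, at 1.60 FPKM in mutants and 0.759 FPKM in wildtype (0.99). It reached a mean of 1 FPKM only through its mutant value. *Mecom* was at 8.42 and 6.32 FPKM (0.41). *Runx1* was at 0.368 FPKM in mutants against 0.259 FPKM in wildtype, *Myb* at 1.54 and 1.14 FPKM (0.40), *Cd34*, also an endothelial gene, at 29.7 and 23.5 FPKM (0.34) and *Kit* at -0.33. *Ptprc*, which encodes the pan-leukocyte antigen, was at 0.0964 FPKM in mutant and listed at 0 in wildtype embryos. Of 7 visceral endoderm and yolk sac genes averaging at least 1 FPKM, 3 were at least 1.5-fold higher and 4 at least 1.5-fold lower in mutant embryos, with a median of -0.69. Over those averaging at least 5 FPKM the median was -0.00035, with 1 higher and 1 lower. With a mean of at least 0.1 FPKM, 3 were higher and 8 lower, with a median of -0.87. Below a mean of 1 FPKM were *Cubn* at 0.157 and 1.37 FPKM (-2.51), *Apob* at 0.346 and 1.52 FPKM (-1.86), *Apoc2* at 0.115 and 1.77 FPKM (-3.13) and *Amn* at 0.127 and 0.444 FPKM (-1.26). *Afp*, the most abundant, was at 14.7 and 8.10 FPKM (0.85), and *Ttr* at 2.48 and 7.51 FPKM (-1.56). *Apoa2* was at 2.77 and 0.913 FPKM (1.5), *Rbp4* at 6.46 and 11.8 FPKM (-0.85), *Lrp2* at 3.60 and 5.85 FPKM (-0.69) and *Apoa1* at 1.67 and 3.13 FPKM (-0.87). *Apoa2* reached a mean of 1 FPKM only through its mutant value. The 12 entries summed to 36.9 FPKM in mutants and 45.0 FPKM in wildtype.

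Among the neuron markers, *Tubb3* was at 99.9 FPKM in mutants and 37.0 FPKM in wildtype (1.43), *Gap43* at 39.9 and 31.4 FPKM (0.34), *Stmn2* at 22.6 and 11.5 FPKM (0.97) and *Nefm* at 16.6 and 5.51 FPKM (1.57). The highest ratios were those of *Nhlh2*, at 5.76 and 1.53 FPKM (1.85), and *Dcx*, at 5.37 and 1.62 FPKM (1.67), and *Elavl4* was at 9.11 and 4.74 FPKM (0.93).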
